A study of Mus musculus with 9 samples.

Results

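The H4K8ac peak list of mouse lung endothelial cells held 180263 of the 1309635 regions in a deposited table of chromatin regions and read counts. H4K8ac is acetylation of lysine 8 of histone H4. It was profiled by ACT-seq, in which an antibody brings a Protein A/G-Tn5 transposase to chromatin and the transposase tags the DNA nearby with sequencing adaptors. The cells were lung endothelial cells isolated from WT mice, with no treatment named, and 1 library each was made with antibodies to H4K8ac, 6 other acetylated residues and H3K4me3 and with control IgG. With 1 library per target, no value below has a replicate error and no test was possible. Per-animal details (strain, age, sex, number of animals) are not given in the labels used here.

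Acetylation of lysine 8 removes a positive charge from the histone H4 tail, and it is found with other H4 acetylations at active promoters, at enhancers and over transcribed genes. Enzymes of the MYST family, among them Kat5 (Tip60) and Kat7 (Hbo1), and the coactivators p300 and CBP acetylate the H4 tail. Histone deacetylases remove the mark, and bromodomain proteins of the BET family bind acetylated H4. The acetyl group comes from nuclear acetyl-CoA.

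The table joined 8 region lists under shared identifiers, and the H4K8ac list was taken as the one of 180263 regions in which no region is under 102 bp. After separation, 0 regions of that list were out of genome order and 0 were narrower than 102 bp. The separation imposed both rules wherever they could be kept, so these values are no check that regions were assigned to the right list. The name rests on the reads. Among identifiers whose only unshared bases (those that lie under a single identifier) lay in this list, the H4K8ac library was the densest of the 9. Its density there is therefore a description of the list and not evidence for it, and the name is a measured property rather than a record of how the regions were called. The other lists were named in the same way, 3 of them on little sequence, since only 5 identifiers served for H3K9ac, 19 for H2AK5ac and 21 for H3K4me3. The H4K8ac library held 1750024 counted reads and the IgG library 365999, so that 1 read is worth 0.571 CPM, the scale set by all reads of the library in the table, in H4K8ac and 2.73 CPM in IgG.

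Most H4K8ac peaks were narrow. Of the 180263 peaks, 58.5% had the least width of 102 bp, and the 74857 wider ones had a median width of 229 bp. The widest peak measured 1910 bp. On chromosomes 1 to 19, X and Y there were 176055 peaks, which made up 1.13% of the chromosome spans, and 4208 lay on other sequences. The H3K18ac list, closest in size with 171339 peaks, had 48.6% at its least width of 104 bp, and the H3K27ac list had 20.01% at 108 bp.

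Reads could be placed in an H4K8ac peak alone at 1856 peaks, with 158 kb of unshared sequence. These are a small part of the list and differ from it, with 454 wider than 102 bp, beside 74857 of all 180263. No base was shared in 1178 of them, while no other list touched 69293 of the 180263. H4K8ac reads lay in 1314 of the 1856 (70.8%), and the 542 without had a median of 29 unshared bp. Over all 1856 peaks, the H4K8ac library had 21424 reads, a density of 77.7 CPM per kb (95% Poisson interval 76.6 to 78.7, counting error only). IgG had 2508 reads or 43.5 CPM per kb (41.8 to 45.2), and the ratio of H4K8ac to IgG was 1.79 (1.71 to 1.86). Of those IgG reads, 2504 lay in 2 peaks. A peak inside Pmepa1 at chr2:173237994-173238412 held 13 H4K8ac and 1387 IgG reads, and a peak inside Ppp2r3a at chr9:101107488-101107750 held 80 H4K8ac and 1117 IgG reads. Without these 2 peaks the densities were 77.6 CPM per kb in H4K8ac and 0.0696 CPM per kb in IgG (4 reads, interval 0.0189 to 0.178), a ratio of 1115. The ratio over all 1856 peaks thus rests on 2 places where IgG stood above H4K8ac.

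**Figure D1:**
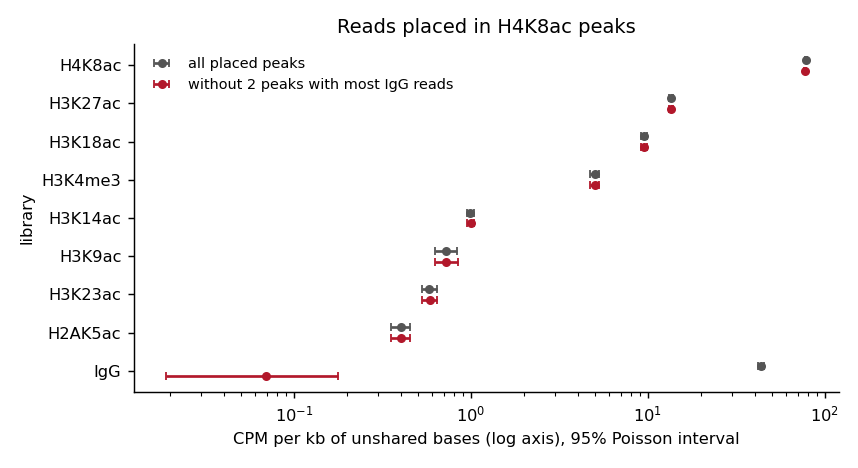
CPM per kb of unshared sequence (log axis) of the 9 libraries in the peaks whose reads can be placed in the H4K8ac list, for all 1856 peaks (grey) and without the 2 peaks with most IgG reads (red). Bars are 95% Poisson intervals, which cover counting error only. H4K8ac stands at 77.7 CPM per kb, and IgG lies at 43.5 CPM per kb over all peaks and at 0.0696 CPM per kb without the 2 peaks, while the other libraries hardly move.

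The other antibodies gave reads in the same bases, although no other list has a peak there. H3K27ac had 13.5 CPM per kb with reads in 59.0% of the 1856 peaks, and H3K18ac had 9.46 CPM per kb with reads in 23.2%. H3K4me3 followed with 5.00 CPM per kb. The remaining 4 libraries lay between 0.400 CPM per kb (H2AK5ac) and 0.992 CPM per kb (H3K14ac). Where none of a peak's bases was shared (1178 peaks), 96.2% held H4K8ac reads, with a median of 14 reads per peak. Narrow peaks carried reads as well. The 1099 peaks of 102 bp with no shared base had 80.7 CPM per kb of H4K8ac and 0.0966 CPM per kb of IgG, and the 79 wider ones had 147 CPM per kb of H4K8ac and 231 CPM per kb of IgG. All 1117 IgG reads of these wider peaks lay in the Ppp2r3a peak.

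The H3K4me3, H3K9ac, H3K23ac and H2AK5ac reads in these peaks differed with place, those of H3K27ac and H3K18ac little. Unlike the others, H2AK5ac was lower within 2 kb of gene ends, with 0.160 CPM per kb (0.0829 to 0.280). It had 0.431 (0.379 to 0.487) farther away. Near gene ends it had only 12 reads, in 2 peaks. In the 224 peaks within 2 kb of a gene end, H4K8ac had 88.7 CPM per kb, H3K4me3 26.6, H3K27ac 14.4 and H3K18ac 9.33. In the same peaks H3K9ac had 3.65 (2.99 to 4.42) and H3K23ac 2.07 (1.77 to 2.40). IgG had 0 reads there, with an upper limit of 0.566 CPM per kb. In the 1632 peaks farther away, H4K8ac had 76.3 CPM per kb, H3K27ac 13.4, H3K18ac 9.48, H3K4me3 2.25, H3K23ac 0.393 (0.347 to 0.444), H3K9ac 0.351 (0.279 to 0.437) and IgG 49.0, nearly all of it from the Pmepa1 and Ppp2r3a peaks. Few peaks carried the H3K9ac reads near gene ends, 7 of 224, with 52 of the 106 reads in 1 peak. H3K23ac reads lay in 18 of the 224, with 47 of 177 reads in 1 peak. Farther away they lay in 38 of the 1632, with 81 of 264 reads in 1 peak. The H3K4me3 density was higher near gene ends (interval 24.6 to 28.6 CPM per kb) than farther away (2.05 to 2.47). Its reads lay in 56 of the 224 peaks near gene ends and 77 of the 1632 farther away. These intervals take each read as independent, although both mates of a fragment were counted, and so are too narrow. A larger set of 23540 peaks, which adds identifiers that also hold H3K14ac sequence, gave 76.4 CPM per kb of H4K8ac.

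The 10 placed peaks with the most H4K8ac reads are given here with their genes. A peak inside Col4a1, which encodes a chain of basement membrane collagen IV, lay at chr8:11274989-11275163. It held 111 H4K8ac reads (63.4 CPM, interval 52.2 to 76.4) and 0 IgG reads (upper limit 10.1 CPM). With IgG taken as 3 reads (8.20 CPM), H4K8ac was 7.74-fold higher, a value that leaves out the counting error of both. The peak was picked for having the most H4K8ac reads, so its count, interval and fold describe it and are no measure of enrichment. A peak at chr8:18690405-18690648 in Angpt2, the gene of a ligand of the endothelial receptor Tie2 that lies within Mcph1, held 103 H4K8ac and 0 IgG reads. No other list had a peak at these places, but the Col4a1 peak had 36 H3K18ac and 32 H3K27ac reads and the Angpt2 peak 1 H3K18ac and 43 H3K27ac reads. Peaks in Mical2, an enzyme that oxidises actin, and in Mdfic held 101 and 97 H4K8ac reads, and 0 IgG reads each. A peak at chr9:78476059-78476247, 1.89 kb from Mto1, held 90 H4K8ac, 52 H3K9ac and 37 H3K4me3 reads and 0 IgG reads, the only one of the 10 with more than 2 H3K9ac reads. A peak 99 bp from Ap1s2 on the X chromosome held 90 H4K8ac, 22 H3K4me3 and 0 IgG reads. Those in Nol4l, Dsn1 and Palld, a gene of an actin-binding protein, held 83, 74 and 73 H4K8ac reads and 0 IgG reads, and the Ppp2r3a peak was the one with IgG above H4K8ac.

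Of the identifiers, 180263 hold more than 1 region, so that their reads sum over unrelated places. Over all identifiers, 132874 of 578465 (22.97%) had an H4K8ac read and 903 had an IgG read. Of the 67590 identifiers with at least 10 reads in H4K8ac and IgG together, 67043 (99.2%) were at least 2-fold higher in H4K8ac on the scale of CPM with a prior count of 2, and 454 (0.672%) were at least 2-fold lower. IgG had 0 reads in 66960 of the 67590, which therefore passed the filter on reads through H4K8ac alone, and the 99.2% follows from that filter and is no measure of enrichment over IgG. With IgG taken as 3 reads or more, 13347 (19.7%) passed, since at least 29 H4K8ac reads are then needed. Among the placed peaks, 899 had at least 10 reads. Of these, 896 were at least 2-fold higher, which the same filter and the choice of the list fix in advance, and 155 (17.2%) were with IgG taken as 3 reads or more, near the 19.7% of all identifiers. At this depth of IgG, a smaller ratio was not detectable in most identifiers.

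H4K8ac peaks lay toward genes. Of the peaks, 18.5% (exact binomial interval 18.3 to 18.7) had a base within 2 kb of an end of a protein-coding gene, windows that make up 5.49% of the chromosomes, a ratio of 3.38. Another 50.7% lay inside genes farther from their ends (34.9% of the chromosomes, a ratio of 1.45), and 30.8% lay outside genes and windows (59.6%, a ratio of 0.516). Within 1 kb of a start site listed by RefSeq lay 10.4% of the peaks, against 1.37% of the chromosomes. The 5′ side held more peaks than the 3′ side, with 11.4% within 2 kb of a 5′ end and 4.96% within 2 kb of a 3′ end. Of H3K18ac peaks, 43.4% lay inside genes and 39.9% outside, and of H3K27ac peaks 45.4% and 34.3%, so that the share inside genes was highest, and that outside lowest, in H4K8ac among these 3 lists. The share inside genes differed with width in H4K8ac. It was 54.3% in peaks of 102 bp and 45.6% in wider ones (45.2 to 45.9%), the latter near the H3K27ac share. The low share outside genes did not follow the narrow peaks, with 32.4% in peaks of 102 bp and 28.5% in wider ones. H3K18ac and H3K27ac peaks were not split by width. Each difference over the whole lists is wider than the binomial intervals (50.5 to 50.9% in H4K8ac, 43.2 to 43.7% in H3K18ac and 45.1 to 45.7% in H3K27ac inside genes), which do not cover the spread between libraries.

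Width and sharing went with place. Of the 102 bp peaks, 5.03% lay within 1 kb of a start site, beside 11.5% of those of 103 to 200 bp, 15.6% at 201 to 400 bp, 37.0% at 401 to 800 bp and 59.9% of the 1170 peaks wider than 800 bp. On average 0.732 other lists touched a peak of the narrowest class, and 6.74 a peak of the widest. No other list touched 69293 H4K8ac peaks (38.4%), of which 94.2% had the least width, and all 7 touched 10122 (5.62%), of which 0.366% had it. Peaks touched by no other list lay within 1 kb of a start site in 2.43% of cases and inside genes away from the ends in 58.9%. They were more often within 2 kb of a 3′ end (5.62%) than of a 5′ end (3.96%), the reverse of the whole list. Peaks touched by all 7 lists were within 1 kb of a start site in 37.2% of cases.

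**Figure D2:**
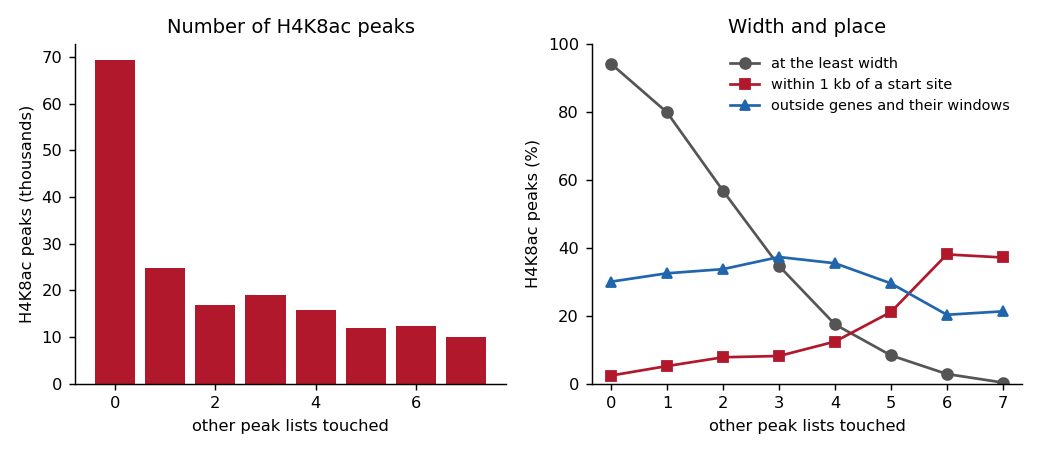
H4K8ac peaks by the number of other peak lists that share at least 1 base with them: number of peaks (left), and the percent with the least width of 102 bp, within 1 kb of a start site, and outside genes and their 2 kb windows (right). Peaks touched by no other list number 69293 and are mostly of the least width, and those near start sites become common at 6 and 7 other lists.

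H3K18ac peaks touched 45.7% of H4K8ac peaks and 84.4% of those wider than 102 bp, and H3K27ac peaks touched 44.1% and 83.9%. The other way round, H4K8ac peaks touched 67.1% of H3K27ac peaks, 64.6% of H3K9ac, 54.5% of H3K4me3, 53.7% of H2AK5ac, 47.0% of H3K18ac, 39.9% of H3K23ac and 12.9% of H3K14ac peaks. H2AK5ac, the other mark outside histone H3, touched 19.7% of H4K8ac peaks.

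Around start sites the H4K8ac peaks formed a narrow summit just upstream of the start. They covered 42.8% of 21238 start sites at the start itself, 43.2% at 50 bp upstream, 38.4% at 50 bp downstream, and 3.94% at 1 kb upstream and 4.80% at 1 kb downstream. H3K4me3, the mark of active promoters, covered 49.6% at the start and 11.7% at 1 kb downstream, and so reached farther into the gene than H4K8ac did. H3K18ac (43.9% at the start) and H3K27ac (45.3%) followed the H4K8ac shape.

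**Figure D3:**
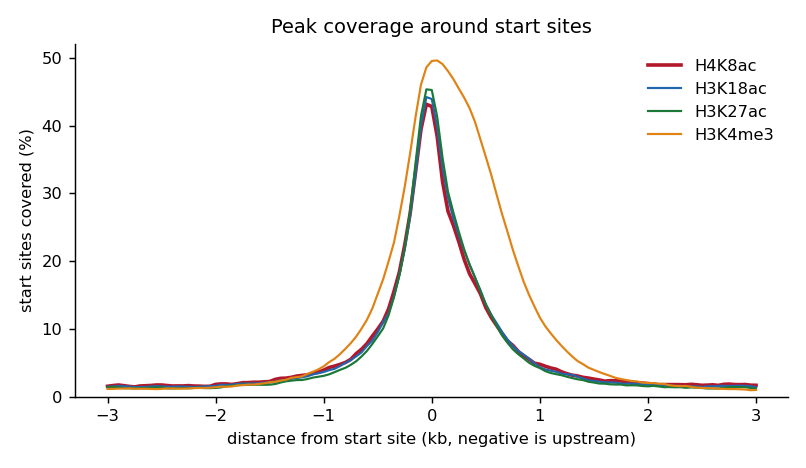
Percent of 21238 RefSeq start sites covered by a peak, at steps of 50 bp out to 3 kb on either side (negative is upstream). H4K8ac, H3K18ac and H3K27ac share a narrow summit of 42.8 to 45.3% at the start, and H3K4me3 extends downstream, with 11.7% at 1 kb against 4.80% for H4K8ac.

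Of the 10 widest H4K8ac peaks, 9 lay in or at a gene. Among them were those of Skil (1835 bp), Setd5 (1732 bp), Nsd1 (1726 bp), Sp1 (1609 bp), the pair Jkamp and L3hypdh (1544 bp), Orai2 (1535 bp), Rrbp1 (1516 bp) and Gsk3b (1505 bp), and all 10 were touched by the 7 other lists. The widest of all, 1910 bp at chr17:39844474-39846383, lay 104 kb from the nearest protein-coding gene. Only its edge overlapped Rn18s-rs5 (chr17:39846354-39848202), annotated as a pseudogene related to ribosomal RNA. Setd5 and Nsd1 encode SET-domain proteins, Skil a brake on TGF-beta signalling and Gsk3b a kinase of the Wnt pathway.

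Promoter windows are printed to show the letters under H4K8ac peaks of different kinds, with 1 window outside them. The 6 windows printed here run from 250 bases before to 50 after a RefSeq start site (GRCm38.p6, 5′ to 3′ on the gene's strand). Capitals mark matches, on either strand, to CCGGAAG (the core bound by ETS factors, a family that includes Erg and Fli1), TGANTCA (AP-1), GGGCGG (bound by SP and KLF factors) and TATAAA (the TATA box). Gsk3b, at chr16:38088751-38089050 on the plus strand, lies in one of the widest peaks. Kat7, at chr11:95310197-95310496 on the minus strand, encodes an H4 acetyltransferase. Flt4, at chr11:49609429-49609728 on the plus strand, encodes the receptor of lymphatic growth factor VEGF-C. Slc7a11, at chr3:50443564-50443863 on the minus strand, encodes the cystine-glutamate exchanger, of interest because the series title names cystine import. Acta2, at chr19:34255324-34255623 on the minus strand, has H4K8ac without H3K4me3. Alb, at chr5:90460620-90460919 on the plus strand, encodes the liver protein albumin and has neither peak.
Gsk3b: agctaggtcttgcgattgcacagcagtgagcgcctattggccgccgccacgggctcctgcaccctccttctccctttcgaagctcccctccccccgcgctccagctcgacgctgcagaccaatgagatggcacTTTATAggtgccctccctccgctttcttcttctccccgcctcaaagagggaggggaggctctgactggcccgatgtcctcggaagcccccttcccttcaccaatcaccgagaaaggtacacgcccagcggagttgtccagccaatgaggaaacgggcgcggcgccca
Kat7: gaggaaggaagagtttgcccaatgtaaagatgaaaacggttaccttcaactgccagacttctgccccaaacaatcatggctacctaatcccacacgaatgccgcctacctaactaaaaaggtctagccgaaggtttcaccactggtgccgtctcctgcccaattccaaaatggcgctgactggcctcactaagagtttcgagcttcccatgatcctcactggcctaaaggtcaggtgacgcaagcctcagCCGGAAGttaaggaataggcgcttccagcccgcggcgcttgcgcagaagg
Flt4: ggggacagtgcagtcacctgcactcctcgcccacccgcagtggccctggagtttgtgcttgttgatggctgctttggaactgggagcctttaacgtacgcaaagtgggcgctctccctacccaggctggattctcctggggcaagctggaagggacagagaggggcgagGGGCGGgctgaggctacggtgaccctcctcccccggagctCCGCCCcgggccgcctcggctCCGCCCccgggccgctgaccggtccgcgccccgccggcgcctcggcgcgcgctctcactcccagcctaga
Slc7a11: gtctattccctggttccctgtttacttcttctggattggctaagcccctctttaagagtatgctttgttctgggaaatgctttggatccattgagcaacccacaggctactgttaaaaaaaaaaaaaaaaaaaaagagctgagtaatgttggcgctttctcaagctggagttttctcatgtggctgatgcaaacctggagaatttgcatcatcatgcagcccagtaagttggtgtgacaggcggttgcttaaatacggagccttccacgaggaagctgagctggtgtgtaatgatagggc
Acta2: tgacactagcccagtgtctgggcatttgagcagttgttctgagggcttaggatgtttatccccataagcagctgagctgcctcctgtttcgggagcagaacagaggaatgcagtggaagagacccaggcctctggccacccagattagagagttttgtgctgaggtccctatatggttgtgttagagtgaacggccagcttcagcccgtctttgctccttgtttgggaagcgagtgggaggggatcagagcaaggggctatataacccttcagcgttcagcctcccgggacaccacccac
Alb: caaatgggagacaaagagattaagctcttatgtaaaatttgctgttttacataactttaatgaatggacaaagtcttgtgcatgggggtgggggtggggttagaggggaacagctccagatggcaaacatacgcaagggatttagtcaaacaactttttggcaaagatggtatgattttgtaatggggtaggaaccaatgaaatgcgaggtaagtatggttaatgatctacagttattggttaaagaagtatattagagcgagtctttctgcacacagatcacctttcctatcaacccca
H4K8ac peaks covered all 300 bases of the first 5 windows and 0 of Alb. H3K4me3 peaks covered 300 bases in Gsk3b, Kat7 and Flt4, 273 in Slc7a11 and 0 in Acta2. The observed to expected ratio of CpG was 0.734 in Gsk3b, 0.672 in Kat7 and 0.702 in Flt4, against 0.271 in Slc7a11, 0.270 in Acta2 and 0.272 in Alb. Full H4K8ac coverage thus occurred at CpG-rich and at CpG-poor windows among these 5, which were chosen for display. Over all genes, fully covered windows were mostly CpG-rich. The 3061 of them had a median CpG ratio of 0.851, beside 0.567 for all windows and 0.247 for windows with no H4K8ac peak.

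Over all windows, those of genes with an H4K8ac peak at their ends (14664 of 21263) held CCGGAAG in 15.3% and those of genes without one in 3.17%, beside 11.6% of all windows. GGGCGG was found in 57.9% with a peak and 20.1% without (46.2% of all). TATAAA was found in 8.18% with a peak and 22.4% without (12.6% of all), and TGANTCA in 5.47% and 10.4% (6.99% of all). The median CpG ratio was 0.714 with a peak and 0.213 without. Among windows that themselves held an H4K8ac peak, the 781 with no H3K4me3 peak had TGANTCA in 14.2% and CCGGAAG in 3.97%, and the 10004 with both marks had them in 4.45% and 20.9%. The median CpG ratio was 0.328 in the first group and 0.803 in the second. The 1151 windows with an H3K4me3 peak and no H4K8ac peak had a median CpG ratio of 0.703. They held GGGCGG in 62.3%, TGANTCA in 4.08% and CCGGAAG in 6.34%. A high CpG ratio and GGGCGG were thus not particular to windows with H4K8ac. These are descriptions of letters in a window and not of bound sites.

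An H4K8ac peak lay within 2 kb of an end of 14635 of 21887 protein-coding genes (66.9%), and a peak wider than 102 bp did so for 12224 (55.9%). Over the span of the gene with 2 kb on either side, 16494 genes (75.4%) had one. The median gene had 344 bp of H4K8ac peak at its ends. Among 17492 genes with a strand in the promoter table, 61.3% had a peak within 2 kb of the 5′ end and 34.8% within 2 kb of the 3′ end. All 8 lists met at 6803 genes, and 7 genes had the 7 other lists and no H4K8ac. Windows of neighbouring genes overlap, so that a peak can count for both, as with Mpst and Tst, a pair of sulfur transferase genes with 662 bp each. In bulk cells, fewer cells of a type and less signal per cell cannot be told apart.

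The gene with most H4K8ac at its ends was Klf13 (chr7:63886351-63938915), a zinc finger factor, with 3054 bp, of which 1937 bp lay at the 5′ end. Next came Cul1, the scaffold of SCF ubiquitin ligases (2343 bp), Prkch, a protein kinase C (2283 bp), and Bhlhe40, a repressor of the clock (2223 bp). Cog8, Tatdn1, Ssu72, Adamts4, Mtf1 and Setd5 followed with 2183 to 2105 bp. H3K18ac peaks at the same ends covered 2700 bp at Klf13, 1515 bp at Cul1, 1966 bp at Prkch and 2487 bp at Bhlhe40. Cog8 had 6 other lists and the other 9 genes had all 7.

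Endothelial identity genes carried H4K8ac. Of 34, 33 had a peak at their ends, with a median of 788.5 bp, beside 66.9% and 344 bp over all genes. Klf4, a factor induced by laminar flow, had 1537 bp, the sphingosine receptor gene S1pr1 1388 bp and the endomucin gene Emcn 1259 bp. Among the markers, Kdr (VEGF receptor) had 1254 bp, Cdh5 (VE-cadherin) 1059 bp and Pecam1 (CD31) 944 bp, with 4177, 3933 and 6650 bp over their spans. The widest peak of Cdh5 (chr8:104101613-104144504) measured 636 bp and lay inside the gene at chr8:104121642-104122277, and that of Pecam1 (chr11:106654213-106715281) measured 629 bp at chr11:106674540-106675168, also inside. Low values at the ends did not always mean little H4K8ac in the gene. Erg (chr16:95359169-95586600), an ETS factor of endothelium, had 102 bp at its ends and 6709 bp in 40 peaks over its span, with its widest peak of 548 bp 147 kb from the annotated 5′ end. Lmo2 had 102 bp at its ends and 1429 bp over its span. Cldn5 (chr16:18776847-18778262), the tight junction claudin of endothelium, was the 1 gene without, with 0 bp at its ends and over its span and no peak of any of the 8 lists at its ends.

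The short marker sets for other lung cells had lower medians than that for endothelium. Of the 9 endothelial markers chosen to check the label, 8 had a peak at their ends, with a median of 944 bp and a range of 0 to 1254 bp. The 5 lung epithelium markers had a median of 227 bp (0 to 432 bp, with 0 at Ager), the 5 leukocyte markers 204 bp (0 to 314 bp, with 0 at Ptprc and Cd3e) and the 5 mesenchyme markers 217 bp (0 to 1144 bp, with 0 at Col1a2 and Pdgfra). The surfactant gene Sftpc (432 bp) and the smooth muscle actin gene Acta2 (1144 bp) did carry H4K8ac. The full lists of these cell types had higher members, up to 924 bp at the macrophage gene Cd68 and 786 bp at the ciliated cell gene Foxj1, and 68.8% of mesenchymal genes had a peak, beside 66.9% of all genes. The part of other cells in the peaks was not tested.

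Arterial and venous genes had like counts, and lung capillary genes had fewer with a peak at their ends. Of 18 arterial genes 17 had a peak (median 433 bp), led by Jag1 (1496 bp), Hey1 (1318 bp) and Notch1 (1124 bp), ligand, target and receptor of the Notch pathway. The gap junction gene Gja5 had 0 bp, and Jag2 and Mgp had 102 bp each. Of 17 venous and lymphatic genes 16 had a peak (median 432 bp), with 1518 bp at Ephb4, the venous ephrin receptor, 1486 bp at Selp, the gene of P-selectin, and 1046 bp at Flt4. Ccl21a had 0 bp, and Ackr1 and Slc6a2 had 102 bp each. Of 16 lung capillary genes 8 had a peak at their ends (median 51 bp), a lower share than the 66.9% of all genes, but 12 of 16 had one over the span, a share near the 75.4% of all genes. Plvap, a protein of fenestral diaphragms, had 1507 bp, Sgk1 1124 bp and Tbx2 1026 bp, whereas Car4, a marker of aerocytes, and Aplnr and Gpihbp1, genes of general capillary cells, had 0 bp at their ends and over their spans. The fatty acid receptor gene Cd36 had 0 bp at its ends and 739 bp in 6 peaks over its span.

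**Figure D4:**
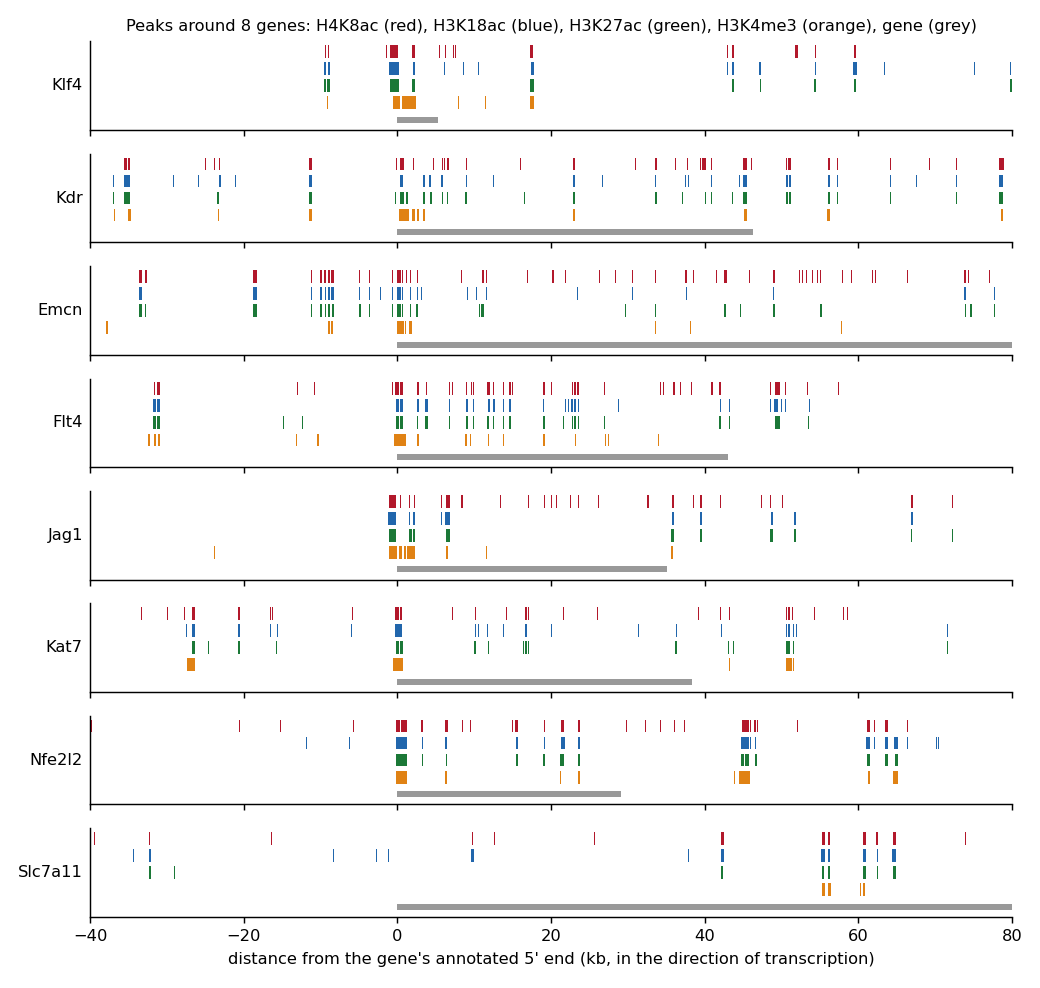
H4K8ac (red), H3K18ac (blue), H3K27ac (green) and H3K4me3 (orange) peaks around the annotated 5′ ends of 8 genes, in kb in the direction of transcription, with the gene in grey up to the right edge. Narrow peaks are drawn at a minimum width so that they can be seen. H4K8ac peaks continue through the bodies of Kdr, Emcn and Flt4, and at Slc7a11 they gather from 42 to 65 kb inside the annotated 5′ end.

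The genes of proteins that set and read H4 acetylation carried H4K8ac. All 29 had a peak, with a median of 744 bp, beside 66.9% and 344 bp over all genes. This was not particular to them or to H4K8ac. All 18 housekeeping genes had a peak too, with a median of 859 bp. Most of the 29 also had 6 or 7 of the other lists at their ends. Trrap, the scaffold of the Tip60 complex, had 1479 bp, Ep300 (p300) 1390 bp, of which 1250 bp were a single peak at its 5′ end (chr15:81585159-81586408), and Msl2, a subunit of the Kat8 complex that acetylates H4, 1337 bp. Kat5 had 1059 bp and Kat7 968 bp. Jade1, a partner of Kat7, and Brd3, a BET reader, had 102 bp each at their ends, and the testis reader Brdt had 174 bp. Of the 18 deacetylase genes 17 had a peak (median 594.5 bp), from 1031 bp at Hdac10, 1019 bp at Sirt4 and 1011 bp at Hdac3 down to 216 bp at Hdac4, 102 bp at Hdac8 and 0 bp at Hdac9, which had 2964 bp in 27 peaks over its span.

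The cystine and glutathione genes, named in part by the series title, had a peak in 23 of 26 cases (median 623.5 bp). Over all genes the share was 66.9% and the median 344 bp, and all 18 housekeeping genes had a peak. Nfe2l2, the factor NRF2 that drives antioxidant genes, had 1401 bp, Got1 1270 bp and the thioredoxin gene Txn1 1250 bp. Slc7a11, Gpx4, the lipid peroxide reductase, and Slc7a9 had 0 bp at their ends. For the first 2 the window missed a start site inside the annotated gene. Slc7a11 has a listed start 55.5 kb inside its annotated 5′ end with 698 bp of H4K8ac and 705 bp of H3K4me3 within 1 kb, in the window printed above, and 16 peaks with 3422 bp over its span. Gpx4 has listed starts 6.40 to 6.85 kb inside with 909 bp of H4K8ac within 1 kb. The same held for Brd3, with 931 bp of H4K8ac within 1 kb of a start 32.3 kb inside, and for Jade1, with 1058 bp within 1 kb of a start 9.15 kb inside, but not for Erg, whose 3 listed starts had 0 to 102 bp. Over all genes with a listed start and no H4K8ac at their ends, 275 of 5812 (4.73%) had a peak within 1 kb of a listed start.

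Of the 22 genes of acetyl-CoA supply 21 had a peak (median 668.5 bp), beside 66.9% and 344 bp over all genes. Most of the 22 also had 6 or 7 of the other lists at their ends. A high share was not particular to this list, as the housekeeping genes below show. The highest were Mpc1 with 1277 bp and Mpc2 with 1126 bp, which form the mitochondrial pyruvate carrier. Pdp1, a phosphatase of pyruvate dehydrogenase, had 1100 bp. Acly, which makes acetyl-CoA from citrate, and Acss2, which makes it from acetate, had 582 bp each. The mitochondrial acetate enzyme gene Acss1 had 0 bp, Pdhx had 327 bp and Pdk2 422 bp. All 20 immediate-early genes had a peak, with a median of 940 bp, the highest of the 16 lists. Junb had 1822 bp, Myc 1427 bp and Fosl1 1400 bp, and the lowest were Egr2 with 205 bp, Egr3 with 358 bp and Fosb with 614 bp. All 18 housekeeping genes had one (median 859 bp), from 1655 bp at Gapdh, 1345 bp at Eef2 and 1259 bp at Eef1a1 to 561 bp at Tubb5, 531 bp at Sdha and 125 bp at Ywhaz, which had 3008 bp over its span.

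Genes of liver, pancreas and muscle and olfactory receptor genes mostly had no peak at their ends. Of all genes, 66.9% had a peak at their ends (median 344 bp) and 75.4% over their span. Of 18 genes of liver, pancreas and muscle 3 had a peak, Apoa1 (362 bp), Cela1 (246 bp) and Tnnt3 (102 bp), and Acta1, Alb and Amy2a5 were among those with 0 bp. Of 1110 olfactory receptor genes 54 (4.87%) had one, with 561 bp at Olfr1033, 496 bp at Olfr984 and 428 bp at Olfr433, and Olfr1, Olfr10 and Olfr100 had 0 bp. The neuronal list had 10 of 18 at the ends, a share below that of all genes. It had 16 of 18 over the span, a share above that of all genes. The highest at the ends were Tubb3 (1004 bp), Syn1 (486 bp) and Stmn2 (454 bp), with 0 bp at Gad1, Gria2 and Map2. In the full lists of other lung cells, 10 of 18 epithelial, 10 of 19 leukocyte and 11 of 16 mesenchymal genes had a peak, with medians of 102, 41 and 133.5 bp. The highest were Foxj1 (786 bp), Abca3 (774 bp) and Krt8 (692 bp) for epithelium, Cd68 (924 bp), Spi1 (889 bp) and Lyz2 (314 bp) for leukocytes, and Acta2, Kcnj8 (952 bp), a pericyte channel, and Tagln (901 bp) for mesenchyme. Among those at 0 bp were Ager, Aqp5 and Cdh1 for epithelium, Adgre1, Cd3e and Cd8a for leukocytes, and Col1a2, Col3a1 and Dcn for mesenchyme.

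**Figure D5:**
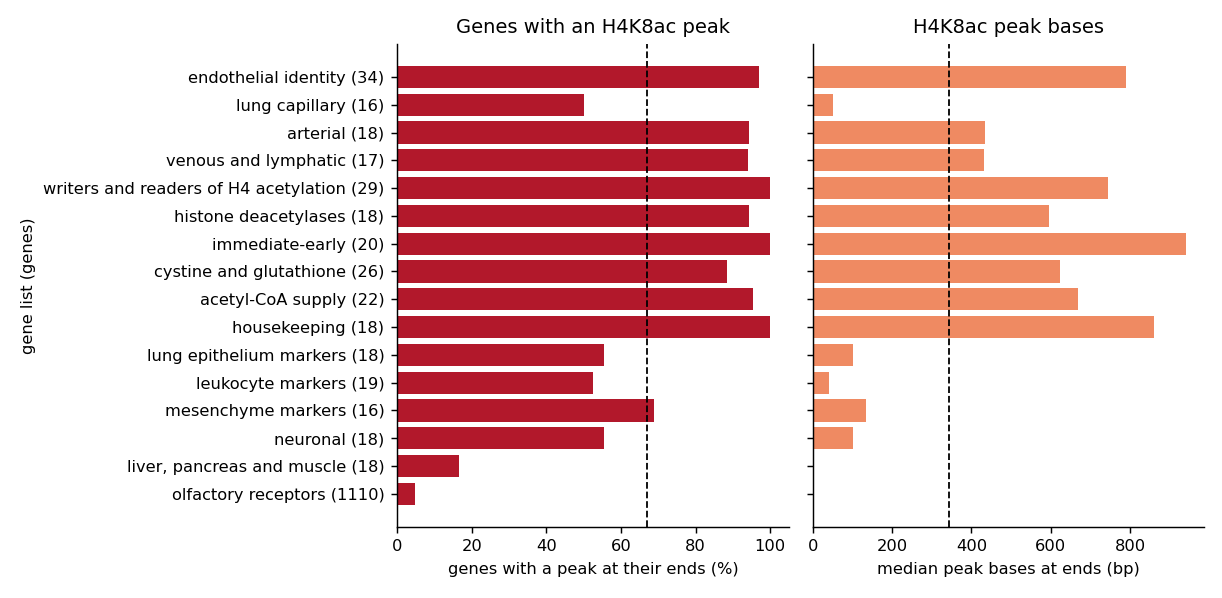
Percent of genes with an H4K8ac peak within 2 kb of their ends (left) and median H4K8ac peak bases there (right) for the 16 gene lists, with the number of genes in parentheses. Dashed lines mark all protein-coding genes (66.9% and 344 bp). The lung capillary list lies below the line, with the lists of other cell types and tissues, of which mesenchyme markers reach 68.8%.

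Some genes held H4K8ac mainly away from their ends. Pde4d, a cAMP phosphodiesterase, had 180 peaks with 30563 bp over its span and 102 bp at its ends. Tcf4, a basic helix-loop-helix factor, had 124 peaks and 25870 bp, Foxp1 150 peaks and 25614 bp, Ptprm, a receptor phosphatase of endothelial contacts, 138 peaks and 25131 bp, and Arhgap26 132 peaks and 24163 bp. These are long genes, of 344.5 to 1302 kb, and values over a span grow with length. Ends with H4K8ac and no other list were found at 111 genes, and were small, with 306 bp at Eif4ebp3, 215 bp at Tlr9 and 204 bp each at 1700102P08Rik, Gm42226 and Metap2 as the 5 highest.

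Along the chromosomes, H4K8ac peaks were clustered and sparse on the X chromosome. The X had 24.1 peaks per Mb, the autosomes together 69.8 per Mb, with a range of 56.5 (chromosome 14) to 95.1 (chromosome 11). The X also has fewer genes, 5.65 per Mb beside 8.40 on the autosomes, but the share of its genes with H4K8ac at their ends was lower too, 45.0% on the X and 68.7% on the autosomes. H3K18ac (46.3% on the X and 70.3% on the autosomes) and H3K27ac (41.0% and 64.9%) showed the same order. The median gap between neighbouring H4K8ac peaks was 3762 bp, and 27.4% of gaps were under 1 kb. Of 27231 bins of 100 kb, 28.1% held no H4K8ac peak, and the 2723 densest held 42.8% of the covered bases. The bin with most, 10530 bp in 49 peaks at chr5:115500001-115600000, holds Pxn, the paxillin gene, Rplp0 and Gcn1. Others among the densest hold Eng, the endothelial TGF-beta coreceptor endoglin (10054 bp in 40 peaks at chr2:32600001-32700000), Col4a1 and Col4a2 (9601 bp in 48 peaks at chr8:11300001-11400000), and Notch1 and Egfl7 (9541 bp in 42 peaks at chr2:26500001-26600000).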

How the data were processed

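ACT-seq libraries for 8 marks and IgG, 1 each, were given as 1 deposited table of counts. The authors counted reads with featureCounts 2.0.6 over a region file, per the file headers, unstranded, with each mate counted and a read that overlaps several identifiers dropped. The submitters' processing notes also list STAR, MACS2, Trim Galore, DESeq2, FastQC and MultiQC, with the builds GRCm38.p6 and mm10. How reads were aligned, duplicates handled and peaks called, with IgG or without, is not stated in the sources used here. The lists were separated by genome order and least width, a step tested on simulated data. The 35244 identifiers without unshared bases held 0 reads in all libraries. CPM used table totals, from 365999 (IgG) to 10044130 reads (H3K14ac). Intervals are exact, at 95%, and cover counting error only. The Poisson intervals take each read as independent. PCR copies and the mates of a fragment are not, so these intervals are too narrow even for counting error. Genes, start sites and promoters are RefSeq, GRCm38.p6, and strand was known for 17492 of 21887 protein-coding genes (79.9%). Python 3.11.15, numpy 2.4.6, pandas 2.3.3 and scipy 1.17.1 were used.

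Members, lists and the rule for named genes were chosen with earlier results of these data known. The rule named, by H4K8ac bases, the 10 highest genes, the 3 highest and 1 to 3 lowest of each list, the 10 widest peaks, the 10 placed peaks with most reads, the 5 highest genes with no other list and over the span, and Cdh5, Pecam1, Kdr, Slc7a11, Kat5 and Kat7. Some genes that the rule named are not reported here. Other genes, such as Acly, Acss2, Mpst, Tst and the genes of dense bins, were chosen after their values were seen.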

Additional observations from a re-analysis of the deposited data

How the results depend on the processing

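No paired analysis was possible because each target had 1 library, and no replicate could be left out. The identifiers at least 2-fold higher in H4K8ac numbered 67043, 101315 with no filter on reads and 30909 with at least 20 reads, counts that follow the filter on reads, since IgG had 0 reads in 66960 of the 67590. The ratio of H4K8ac to IgG was 1.79, 1.56 when scaled without mitochondrial and contig identifiers, and 0.408 in peaks wider than 102 bp, a reversal of direction that rests on the peaks in Pmepa1 and Ppp2r3a. Alternatives chosen after seeing the data were IgG taken as 3 reads or more (13347 identifiers), the ratio without the 2 peaks with most IgG reads (1115), in peaks with no shared base (3.62) and with H3K14ac-sharing identifiers added (6.41), and CCGGAAG in windows that hold a peak (19.7%, against 15.3% by gene). Peaks at gene ends were 18.5% of the list, 13.6% with windows of 1 kb, 27.7% with 5 kb, 26.0% of wider peaks and 11.4% at 5′ ends alone. Genes with a peak were 66.9%, 61.0% with 1 kb, 75.4% over the span, 55.9% with wider peaks and 61.3% at 5′ ends. H4K8ac peaks touching no other list were 38.4%, 44.1% when 50% of the peak had to be shared, 43.7% without the H3K14ac list and 5.39% of wider peaks. Separating lists by order alone left the ratio at 1.79 and the shares at 18.5% and 66.9%. Of the 16 gene lists, 10 lay above the share of all genes, 9 with wider peaks or windows of 1 kb, both without the mesenchyme list, and 11 over spans. The depth of IgG limits the comparison of single peaks, and where no cause is named the cause was not tested.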

Other observations

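At 7 genes the 7 other peak lists lay at the gene ends and H4K8ac did not. They were Cyp27a1, Gldn, Gm266, Megf10, N4bp3, Slc9a3r2 and Tnnc1, chosen after their values were seen. N4bp3 had 1601 bp of H3K4me3 and 188 bp of H3K27ac at its ends, with 1100 bp of H4K8ac over its span. Slc9a3r2, the gene of a scaffold of membrane transporters, had 1131 bp of H3K4me3 and 1485 bp of H4K8ac over its span. Cyp27a1, the sterol 27-hydroxylase gene, had 577 bp of H3K4me3, 656 bp of H3K27ac and 0 bp of H4K8ac over its span, and Tnnc1, the slow troponin C gene, had 604 bp, 207 bp and 0 bp.

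Of the IgG reads in the whole table, 74.2% lay in the 100 identifiers with most, and in the H4K8ac peaks with placed reads IgG had reads in 3 of 1856.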
